A study of Mus musculus with 10 samples.

Results

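The 10 genes described here encode the main steps from the insulin receptor to glucose entry, namely Insr, Irs1, Irs2, Pik3r1, Pik3ca, Akt1, Akt2, Tbc1d4, Slc2a4 and Slc2a1. They were chosen by gene symbol from the deposited table, and all 10 were found among its 30319 symbols. All 10 also passed the filter on low values, at least 1 TPM in at least 2 libraries, which left 16932 genes for testing. Transcript levels are in TPM, which allows for transcript length, so levels of different genes in a library can be set side by side. RNA was taken from total subcutaneous mammary adipose tissue, the inguinal pads, of female mice of the FVB strain. All mice ate 1 of 2 ingredient-matched diets from week 12 to week 30 of age. The 4 groups were Fap-null (FAP-/-) mice on the high-fat diet with 60% of kcal from fat (Null_HFD, n = 3), wild-type mice on that diet (WT_HFD, n = 2), Fap-null mice on the low-fat diet with 10% of kcal from fat (Null_LFD, n = 3) and wild-type mice on the low-fat diet (WT_LFD, n = 2). Fap encodes fibroblast activation protein, a cell-surface serine protease. The labels do not say which part of Fap is disrupted, and the design text calls the samples biological replicates.

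Insulin binding activates the kinase of its receptor, which phosphorylates the adaptor proteins IRS1 and IRS2. These recruit phosphoinositide 3-kinase, whose lipid product brings the kinase AKT to the membrane. AKT phosphorylates TBC1D4 (also called AS160), a brake on vesicle traffic, and vesicles carrying the glucose transporter GLUT4, the product of Slc2a4, then fuse with the cell surface. In fat and muscle this step sets insulin-stimulated glucose uptake, while GLUT1, the product of Slc2a1, serves basal uptake in many cell types. Much of the regulation acts on phosphorylation and on protein location, which transcript levels do not measure.

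A pad is a mixture, so fewer cells of a type and less RNA per cell cannot be told apart. The adipocyte list was present in every library, as Adipoq, which encodes adiponectin, measured 752 to 3206 TPM. Null_HFD 3 and WT_HFD 2 differed from the rest in makeup. Their 10 lymph node markers summed to 3365 and 1480 TPM, against 19.2 to 67.1 TPM in the other 8 libraries, where at most 2 of the 10 markers were listed at 0 in a library. Their 10 skeletal muscle markers summed to 106 and 224 TPM, against 1838 to 9313 TPM elsewhere. The averaged genotype and diet differences of the 10 genes are therefore given with and without these libraries. Some other results that moved without them are given both ways, and the rest are given with all libraries only. Fap itself measured 18.3 to 38.4 TPM in the 6 null libraries and 37.7 to 68.8 TPM in the 4 wild-type libraries, so that Null_HFD 2 lay above WT_HFD 2. Fap transcript was thus detected in every null library, and the labels are used as given.

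Averaged over the 10 libraries, Pik3r1 (215 TPM) and Akt2 (201 TPM) were the most abundant of the 10 transcripts. Akt1 (102 TPM) and Slc2a4 (99.8 TPM) followed. Pik3ca (46.5 TPM), Tbc1d4 (43.6 TPM), Insr (39.9 TPM) and Irs1 (31.7 TPM) formed a middle range, and Irs2 (20.8 TPM) and Slc2a1 (12.6 TPM) were the lowest. Pik3r1 ranked above Akt2 in WT_HFD, Null_LFD and WT_LFD, and Akt2 ranked above Pik3r1 in Null_HFD, at 210 and 162 TPM. Slc2a4 varied most between libraries, 5.66-fold from the lowest to the highest, followed by Slc2a1 (4.18-fold) and Irs1 (4.16-fold). Pik3ca varied least, 1.83-fold.

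**Figure D1:**
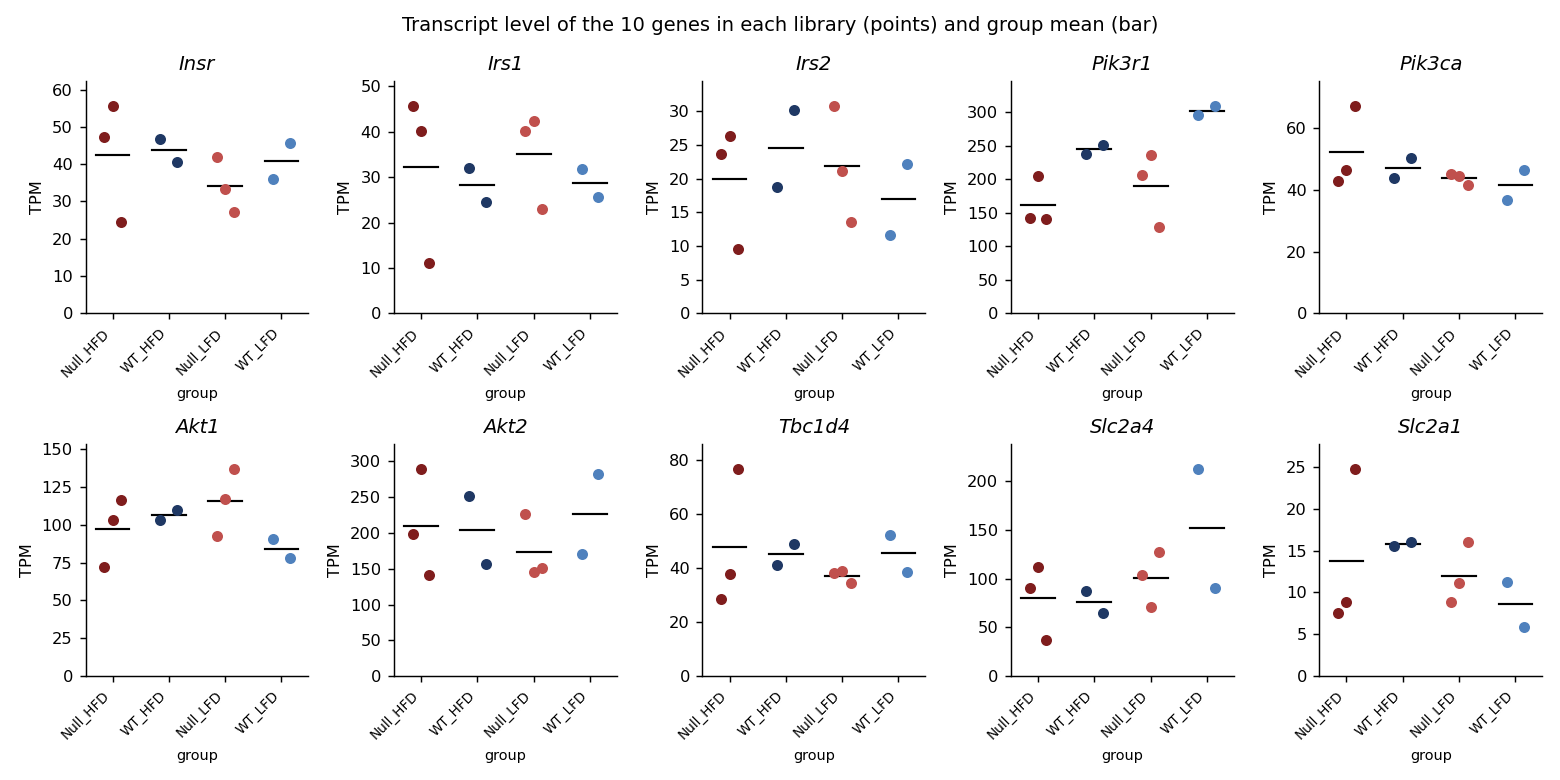
TPM (vertical axes, each from 0) of the 10 genes in the libraries of Null_HFD, WT_HFD, Null_LFD and WT_LFD, with each point a library and each bar a group mean. In the panel for Pik3r1 the 6 null libraries lie at 129 to 236 TPM, all below the 4 wild-type libraries at 238 to 309 TPM, while in each of the other 9 panels the genotypes overlap.

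Insr, the gene of the receptor itself, lies on chromosome 8 at 3122061 to 3279617, minus strand (GENCODE M21, GRCm38, as for all gene positions here). It measured 47.4, 55.6 and 24.4 TPM in Null_HFD and 46.8 and 40.7 TPM in WT_HFD libraries. On the low-fat diet it measured 42.0, 33.3 and 27.3 TPM in Null_LFD and 36.1 and 45.6 TPM in WT_LFD libraries. All 4 groups overlapped, and the lowest value came from Null_HFD 3.

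Irs1 (chromosome 1, 82233101 to 82291416, minus strand) and Irs2 (chromosome 8, 10984681 to 11008458, minus strand) encode the adaptors that carry the signal from the receptor. The 250 bases before the RefSeq start (GRCm38.p6) are shown for both, since they share a pair of motifs. Capitals mark an E-box (CACGTG, bound by basic helix-loop-helix factors) and a FoxO-type insulin response sequence (TGTTTTG, or CAAAACA on the other strand), both searched on both strands.
Irs1 chr1:82291440-82291689 (minus strand): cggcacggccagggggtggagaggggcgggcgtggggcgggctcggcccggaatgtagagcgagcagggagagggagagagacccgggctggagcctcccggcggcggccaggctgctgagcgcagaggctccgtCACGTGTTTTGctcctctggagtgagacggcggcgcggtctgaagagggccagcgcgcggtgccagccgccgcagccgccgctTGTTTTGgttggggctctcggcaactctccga
Irs2 chr8:11008930-11009179 (minus strand): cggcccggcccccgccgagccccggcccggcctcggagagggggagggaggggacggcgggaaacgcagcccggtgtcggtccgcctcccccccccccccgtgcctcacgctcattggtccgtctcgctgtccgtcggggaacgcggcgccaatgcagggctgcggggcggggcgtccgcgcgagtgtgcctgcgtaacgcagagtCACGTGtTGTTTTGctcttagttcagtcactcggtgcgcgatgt
In Irs1 the E-box begins 115 bases before the start and the TGTTTTG 111 bases before it, so the motifs share 2 bases, and a second TGTTTTG begins 32 bases before the start. In Irs2 they begin 44 and 37 bases before the start. For both genes the RefSeq start lies upstream of the GENCODE position given above, farther in Irs2 (window from 11008930, gene to 11008458). The distances therefore hold for the RefSeq start only. Of 32851 RefSeq windows of the same length, 6.02% hold CACGTG, 5.56% hold TGTTTTG and 0.295% hold both. A match describes the letters only and does not show that a factor binds there.

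Irs1 measured 45.7, 40.2 and 11 TPM in Null_HFD and 32.1 and 24.6 TPM in WT_HFD libraries, and 40.2, 42.4 and 23.0 TPM in Null_LFD and 31.8 and 25.7 TPM in WT_LFD libraries. Irs2 measured 23.7, 26.4 and 9.63 TPM in Null_HFD and 18.8 and 30.2 TPM in WT_HFD libraries, and 30.8, 21.1 and 13.6 TPM in Null_LFD and 11.7 and 22.2 TPM in WT_LFD libraries. For both adaptors Null_HFD 3 was the lowest library and the spread within null groups exceeded the distance between group means. Irs1 overlaps Gm9747, a gene on the opposite strand with 5.35 to 31.1 TPM, and the sources used here do not say whether strand was used in quantification, so reads of this pair may not be fully separated. Irs1 exceeded Irs2 in 9 of 10 libraries, with ratios of 1.14 to 2.70, and was the lower of the pair in WT_HFD 2 (ratio 0.814).

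Pik3r1 encodes the regulatory subunit of phosphoinositide 3-kinase and lies on chromosome 13 at 101680563 to 101768217, minus strand. It was the member that separated the genotypes. On the high-fat diet it measured 142, 204 and 140 TPM in Null_HFD and 238 and 251 TPM in WT_HFD libraries. On the low-fat diet it measured 206, 236 and 129 TPM in Null_LFD and 295 and 309 TPM in WT_LFD libraries. Every null library lay below every wild-type library, although Null_LFD 2 (236 TPM) came close to WT_HFD 1 (238 TPM). Group means were 162 ± 36.3 TPM in Null_HFD (SD, n = 3), 244 ± 9.13 TPM in WT_HFD (SD, n = 2), 190 ± 55.3 TPM in Null_LFD (SD, n = 3) and 302 ± 9.5 TPM in WT_LFD (SD, n = 2). In the order Null_HFD, Null_LFD, WT_HFD and WT_LFD, lowest first, only the null groups overlapped with a neighbour. Of the 16932 genes tested, 0.378% had all null libraries below all wild-type libraries.

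The averaged null minus wild-type difference of Pik3r1 was -0.66 on the log2(TPM + 1) scale (SE 0.20, 95% interval -1.10 to -0.21). Its limma adjusted p over all genes was 0.98, above the threshold of 0.05. It was -0.61 (SE 0.28) within the high-fat diet and -0.71 (SE 0.28) within the low-fat diet, with limma adjusted p = 1 and 0.949. Leaving out any 1 library gave averaged differences of -0.75 to -0.53, and leaving out Null_HFD 3 and WT_HFD 2 together gave -0.59 (limma adjusted p = 0.757). Within the low-fat diet the difference was -0.45 without Null_LFD 3, the lowest library, against -0.71 with it. The 4 fibroblast markers, of which Fap is 1, summed to 899 to 2145 TPM in null and 1652 to 2038 TPM in wild-type libraries, none at 0, and the 10 adipocyte markers to 11270 to 32389 TPM in null and 22939 to 35176 TPM in wild-type libraries, none at 0. Their part in the difference was not tested.

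RefSeq gives Pik3r1 more than 1 start, and the deposited value is per gene. The 250 bases before the distal start and before an internal start are shown because the gene-level difference cannot be assigned to either. Capitals mark GC boxes (GGGCGG, or CCGCCC on the other strand, found in 32.7% of the 32851 windows).
Pik3r1 distal chr13:101768218-101768467 (minus strand): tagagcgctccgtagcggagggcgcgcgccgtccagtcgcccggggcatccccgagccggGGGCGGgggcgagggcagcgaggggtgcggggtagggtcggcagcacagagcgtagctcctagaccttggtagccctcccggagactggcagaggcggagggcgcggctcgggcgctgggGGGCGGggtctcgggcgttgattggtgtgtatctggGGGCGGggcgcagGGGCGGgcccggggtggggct
Pik3r1 internal chr13:101692631-101692880 (minus strand): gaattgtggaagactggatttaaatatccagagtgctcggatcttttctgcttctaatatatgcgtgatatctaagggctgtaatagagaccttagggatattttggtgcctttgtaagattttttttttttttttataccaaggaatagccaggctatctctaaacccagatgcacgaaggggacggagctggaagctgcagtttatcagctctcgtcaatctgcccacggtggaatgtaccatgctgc
The distal window holds 4 GC boxes with a GC content of 76.4%, and the internal window holds 0 with a GC content of 42.4%.

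Pik3ca, which encodes the catalytic subunit p110-alpha (chromosome 3, 32397671 to 32468486, plus strand), did not share that pattern. It measured 43.0, 46.5 and 67.2 TPM in Null_HFD and 44.0 and 50.4 TPM in WT_HFD libraries, and 45, 44.6 and 41.5 TPM in Null_LFD and 36.7 and 46.6 TPM in WT_LFD libraries. Null_HFD 3 was the highest library and the other 9 lay within 36.7 to 50.4 TPM. Its averaged null minus wild-type difference was 0.10 (95% interval -0.26 to 0.45).

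Akt1 and Akt2 encode kinases of the same family, of which AKT2 is the form most tied to glucose uptake in mouse fat. Akt1 (chromosome 12, 112653821 to 112674884, minus strand) measured 71.9, 103 and 116 TPM in Null_HFD and 103 and 110 TPM in WT_HFD libraries. On the low-fat diet it measured 92.2, 117 and 137 TPM in Null_LFD and 90.6 and 77.7 TPM in WT_LFD libraries. The 3 Null_LFD libraries lay above both WT_LFD libraries (difference 0.44, SE 0.25, limma adjusted p = 0.949). The high-fat groups overlapped (-0.16, SE 0.25, and -0.26 without Null_HFD 3 and WT_HFD 2). The share of all genes with such an order between these low-fat groups was not computed. The interaction for Akt1 was -0.60 (95% interval -1.38 to 0.19, limma adjusted p = 1) and did not pass.

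Akt2 (chromosome 7, 27591552 to 27640826, plus strand) measured 198, 290 and 141 TPM in Null_HFD and 252 and 157 TPM in WT_HFD libraries. It measured 226, 145 and 151 TPM in Null_LFD and 171 and 282 TPM in WT_LFD libraries. Replicates of every group were far apart, so no order of the groups could be read. Akt2 exceeded Akt1 in all 10 libraries, from 1.10-fold in Null_LFD 3 to 3.62-fold in WT_LFD 2. The mean log2 ratio of Akt2 to Akt1 differed by -0.32 between null and wild-type libraries (exact two-sided permutation within diets, p = 0.48, adjusted p = 0.9 over 6 ratio tests) and by 0.01 between high-fat and low-fat libraries (exact permutation within genotypes, p = 1).

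Tbc1d4 (chromosome 14, 101442360 to 101609191, minus strand) encodes the AKT substrate that restrains GLUT4 vesicles. It measured 28.6, 37.8 and 76.9 TPM in Null_HFD and 41.2 and 49.0 TPM in WT_HFD libraries, and 38.1, 38.9 and 34.5 TPM in Null_LFD and 52.4 and 38.6 TPM in WT_LFD libraries. Null_HFD held both the lowest and the highest library. Without Null_HFD 3 and WT_HFD 2 the averaged null minus wild-type difference was -0.29 (limma adjusted p = 0.795), against -0.16 (SE 0.25) with all libraries.

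Slc2a4, the gene of the insulin-responsive transporter GLUT4, lies on chromosome 11 at 69942539 to 69948188, minus strand. It measured 90.7, 112 and 37.5 TPM in Null_HFD and 86.9 and 64.6 TPM in WT_HFD libraries, and 104, 71.4 and 127 TPM in Null_LFD and 213 and 90.7 TPM in WT_LFD libraries. The highest value, in WT_LFD 1, stood 1.21 above the gene mean on the log2 scale, and the lowest, in Null_HFD 3, stood 1.26 below it (deviation -1.26). The 5 high-fat libraries spanned 37.5 to 112 TPM and the 5 low-fat libraries 71.4 to 213 TPM, and they overlapped. The averaged high-fat minus low-fat difference was -0.66 (SE 0.35, 95% interval -1.45 to 0.14, limma adjusted p = 0.541). Leaving out any 1 library gave averaged differences of -0.96 to -0.35. The difference was -0.35 without WT_LFD 1, -0.42 without Null_HFD 3 and -0.32 without Null_HFD 3 and WT_HFD 2. Its size thus rested on single libraries. Skeletal muscle also expresses Slc2a4, and the 10 muscle markers summed to 106 to 5074 TPM in high-fat and 1838 to 9313 TPM in low-fat libraries, none at 0. The adipocyte markers summed to 11270 to 32389 TPM in high-fat and 16257 to 35176 TPM in low-fat libraries, and their part in the Slc2a4 values was not tested.

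Slc2a1, the gene of GLUT1 (chromosome 4, 119108711 to 119137983, plus strand), measured 7.59, 8.88 and 24.8 TPM in Null_HFD and 15.5 and 16 TPM in WT_HFD libraries. It measured 8.88, 11.1 and 16 TPM in Null_LFD and 11.3 and 5.93 TPM in WT_LFD libraries. Within wild type both high-fat libraries lay above both low-fat libraries (difference 0.86, SE 0.53, limma adjusted p = 0.761). The share of all genes with such an order between these wild-type groups was not computed. The null groups overlapped (0.04, SE 0.43). That overlap rested on Null_HFD 3, since the other Null_HFD libraries did not exceed 8.88 TPM, the lowest Null_LFD value as rounded. The interaction was -0.82 (95% interval -2.36 to 0.72, limma adjusted p = 1). The difference within null mice was -0.46 and the interaction -1.29 (limma adjusted p = 0.999) without Null_HFD 3 and WT_HFD 2. A different diet response passed the test with neither set of libraries.

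GLUT4 transcript exceeded GLUT1 transcript in all 10 libraries. The ratio of Slc2a4 to Slc2a1 was 11.9, 12.6 and 1.51 in Null_HFD, 5.6 and 4.04 in WT_HFD, 6.44 to 11.7 in Null_LFD and 18.8 and 15.3 in WT_LFD libraries. In wild type the ratio was lower in both high-fat libraries than in both low-fat libraries, an order that groups this small reach easily. In null mice the diets overlapped. The overlap in null mice rested on Null_HFD 3 (1.51), since the other Null_HFD libraries lay above every Null_LFD library. Averaged over the genotypes the high-fat minus low-fat difference in log2 ratio was -1.15, close to the spread within groups (pooled SD 1.05), and did not pass (exact two-sided permutation within genotypes, p = 0.167, adjusted p = 0.9, where the smallest possible p is 0.0167). It was -0.65 without Null_HFD 3 and -0.53 without Null_HFD 3 and WT_HFD 2. The null minus wild-type difference was -0.32 (exact permutation within diets, p = 0.66) and became 0.18 without Null_HFD 3. For Irs1 to Irs2 the null minus wild-type difference was 0.12 (exact permutation, p = 0.75) and the high-fat minus low-fat difference -0.36 (p = 0.417 by exact permutation), which was -0.05 without WT_LFD 1 and -0.09 without WT_HFD 2.

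**Figure D2:**
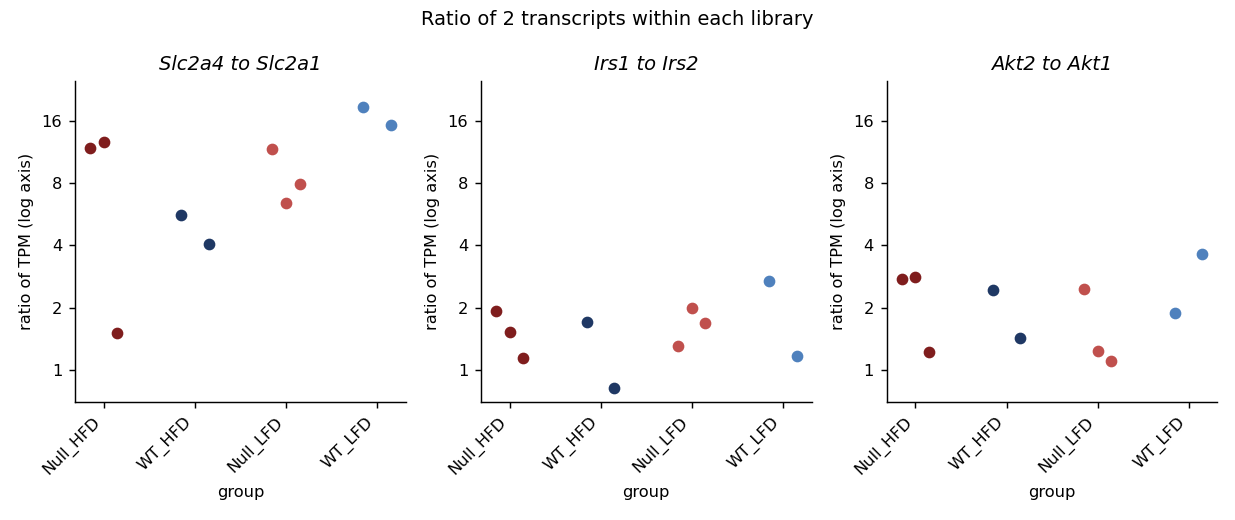
Ratio of TPM within each library (vertical log axes) for Slc2a4 to Slc2a1, Irs1 to Irs2 and Akt2 to Akt1, with each point a library of Null_HFD, WT_HFD, Null_LFD or WT_LFD. The Slc2a4 to Slc2a1 ratio reaches its lowest value, 1.51, in Null_HFD 3 and its highest, 18.8, in WT_LFD 1.

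The genotype comparison, 6 null against 4 wild-type libraries averaged over the diets, asks which of these steps follows the loss of Fap. With limma, 0 of the 10 genes reached the adjusted p threshold of 0.05, nor did any of the 16932 genes tested (0%). At an unadjusted p under 0.05 there was 1 member, Pik3r1, against 4.19% of all genes tested (1.29% lower, 2.9% higher in null). The differences were -0.19 (SE 0.24) for Insr, 0.11 (SE 0.38) for Irs1, -0.01 (SE 0.35) for Irs2, 0.10 (SE 0.16) for Pik3ca and 0.14 (SE 0.17) for Akt1. They were -0.17 (SE 0.26) for Akt2, -0.16 (SE 0.25) for Tbc1d4, -0.27 (SE 0.35) for Slc2a4 and 0.04 (SE 0.34) for Slc2a1. The limma adjusted p of these 9 ran from 0.98 to 0.998. The interval for Insr ran from -0.73 to 0.35, that for Irs1 from -0.75 to 0.96, that for Irs2 from -0.79 to 0.77 and that for Slc2a1 from -0.72 to 0.81, so moderate differences in either direction were not detectable with these libraries. Leaving out Null_HFD 3 and WT_HFD 2, the differences were -0.06 for Insr, 0.32 for Irs1, 0.36 for Irs2, 0.05 for Pik3ca, 0.09 for Akt1, -0.22 for Akt2, -0.14 for Slc2a4 and -0.19 for Slc2a1. The median difference with all libraries was -0.08 over the 10 members and 0.08 over all genes tested. Within the high-fat diet 0 members were called (0.0118% of all genes) and 0 had an unadjusted p under 0.05 (3.82% of all genes, 1.88% higher and 1.94% lower in null). Within the low-fat diet 0 were called (0% of all genes) and 1, Pik3r1, had an unadjusted p under 0.05 (4.43% of all genes, 3.63% higher and 0.797% lower in null).

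The diet comparison set 5 high-fat against 5 low-fat libraries, averaged over the genotypes. Limma called 0 of the 10 genes and 0% of all genes tested, and 0 members had an unadjusted p under 0.05, against 9.69% of all genes. With all libraries the estimates farthest from 0 belonged to the transporters, Slc2a4 at -0.66 and Slc2a1 at 0.45 (SE 0.34, 95% interval -0.32 to 1.21, limma adjusted p = 0.627). The others were -0.16 (SE 0.38) for Irs1, 0.18 (SE 0.35) for Irs2, -0.26 (SE 0.20) for Pik3r1 and 0.20 (SE 0.16) for Pik3ca. They were 0.04 (SE 0.17) for Akt1, 0.05 (SE 0.26) for Akt2 and 0.11 (SE 0.25) for Tbc1d4. With Insr, the limma adjusted p of these 8 ran from 0.628 to 0.958. For Insr the difference was 0.17 (SE 0.24). The order was another without Null_HFD 3 and WT_HFD 2, with Insr at 0.40 (limma adjusted p = 0.878), Akt2 at 0.34, Slc2a4 at -0.32, Irs1 at 0.24 and Irs2 at 0.23. Pik3r1 was then at -0.23, Slc2a1 at 0.19, Tbc1d4 at -0.15, Pik3ca at 0.06 and Akt1 at -0.05. Leaving out Null_HFD 3 alone took Slc2a1 to 0.20. The median was 0.08 over the members and 0.11 over all genes tested, and median-of-ratios scaling took the all-gene median to -0.01. Within wild type 0 members were called (0% of all genes), and at an unadjusted threshold of 0.05 the count was 0 as well (5.61% of all genes, 4.24% higher and 1.37% lower on the high-fat diet). Within null mice 0 were called (0.00591% of all genes), and the count below an unadjusted 0.05 was also 0 (6.67% of all genes, 3.56% higher and 3.11% lower). Without Null_HFD 3 and WT_HFD 2, the null-only difference of Insr was 0.59, against 0.24 with them.

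**Figure D3:**
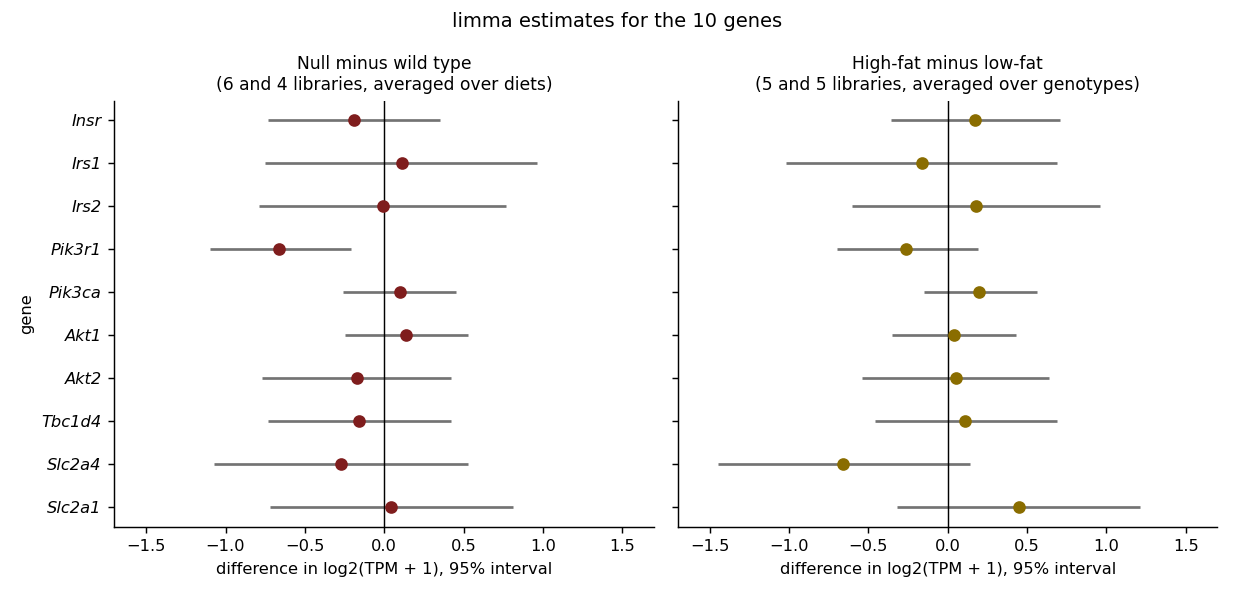
Differences in log2(TPM + 1) (horizontal axes) for the 10 genes (rows), null minus wild type on the left and high-fat minus low-fat on the right, with points for limma estimates and lines for 95% intervals before any adjustment. The interval of Pik3r1 for genotype, -1.10 to -0.21, is the 1 of 20 that does not include 0.

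The interaction asks whether the genotype difference depended on the diet. Limma called 0 of the 10 genes and 0% of all genes, and 0 members had an unadjusted p under 0.05, against 4.14% of all genes (1.07% higher, 3.07% lower). Member estimates ran from -0.82 (Slc2a1, SE 0.68) to 0.45 (Slc2a4, SE 0.71). They ran from -1.29 (Slc2a1) to 0.71 (Slc2a4) without Null_HFD 3 and WT_HFD 2, and that of Irs2 was 0.05, against -0.71 with all libraries.

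The 10 genes also differed between libraries of the same group. Null_HFD 3, richest in lymph node transcripts, held the lowest value of 5 members and the highest of 3. Slc2a4, Irs1, Irs2, Insr and Akt2 were at -1.26, -1.35, -0.95, -0.65 and -0.46 from their means there on the log2 scale, and Slc2a1, Tbc1d4 and Pik3ca at 1.03, 0.85 and 0.54. Its adipocyte list lay at -0.83 and its macrophage list at 0.85. WT_HFD 2, the other library rich in lymph node transcripts, held none of the extremes and ran from -0.49 (Slc2a4) to 0.60 (Irs2). In WT_LFD 1 Slc2a4 was at 1.21 and Irs2 at -0.69, with its adipocyte list at -0.01 and its muscle list at 0.53. In Null_LFD 3, where Mki67, a marker of dividing cells, measured 79.5 TPM against 2.68 to 18.6 TPM elsewhere, Pik3r1 had its lowest value (-0.67) and Akt1 its highest (0.45). The part of cell makeup in these deviations was not tested.

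**Figure D4:**
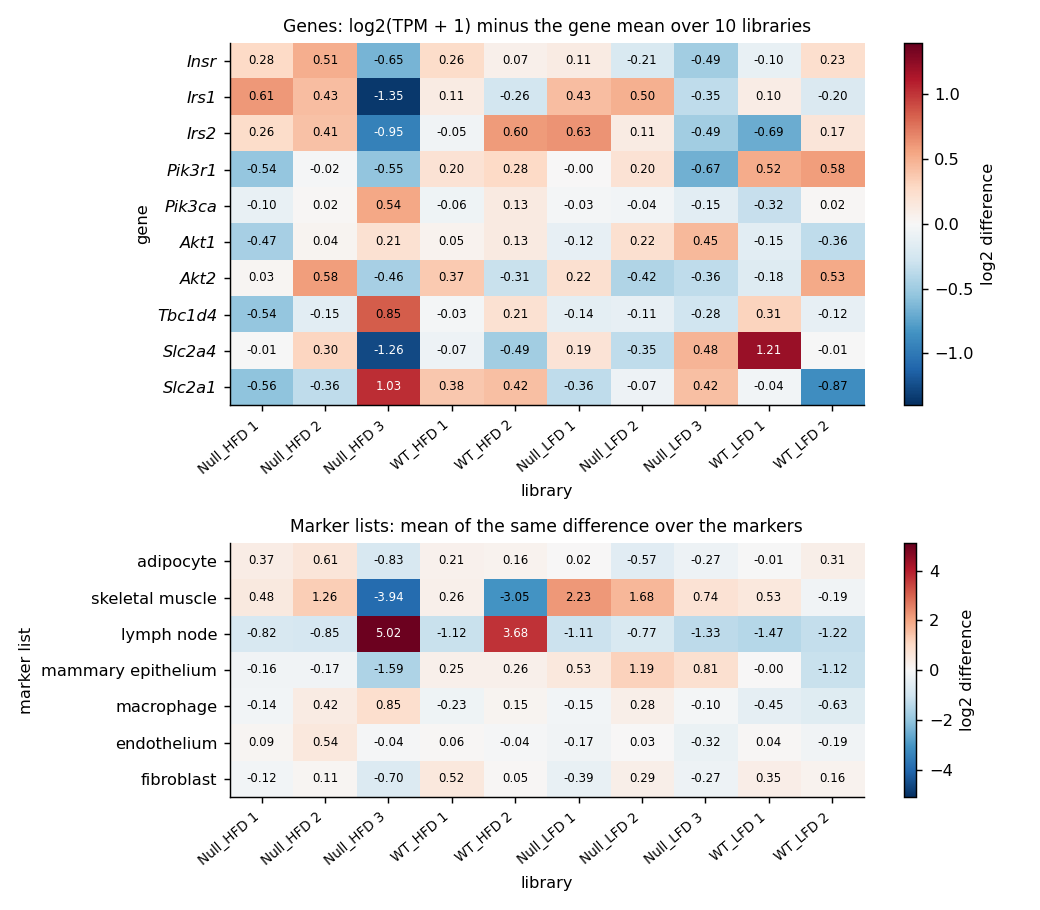
Deviation of each library (columns) from the gene mean on the log2(TPM + 1) scale for the 10 genes (upper panel) and the mean deviation of 7 marker lists (lower panel), red above and blue below the mean, with separate colour scales. Null_HFD 3 combines -1.35 for Irs1 and -1.26 for Slc2a4 with 1.03 for Slc2a1 and with 5.02 for the lymph node list.

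Likeness to a member was measured as the root mean square difference of centred log2(TPM + 1) over the 10 libraries, a description with no test. Closest to Insr were Ptprm, a receptor tyrosine phosphatase gene (0.0733), Vldlr, the very-low-density lipoprotein receptor gene (0.0999), and Tmem245 (0.112), where the median over tested genes was 0.523. Vldlr measured 33.1 TPM in Null_HFD 3 and 77.1 TPM in Null_HFD 2, the same lowest and highest libraries as Insr. Closest to Slc2a4 were Tmem120b (0.129), Pam16 (0.218) and Dlat (0.222), against a median of 0.745. Dlat encodes the E2 subunit of pyruvate dehydrogenase and measured 76.8 TPM in Null_HFD 3 and 280 TPM in WT_LFD 1. Pam16 encodes a part of the mitochondrial import motor. Closest to Pik3r1 were Cdk15 (0.185), Tmeff2 (0.2) and Fgf9 (0.218), against a median of 0.594. These are low transcripts, with Fgf9 at 1.55 to 3.53 TPM, and the added 1 TPM narrows their differences.

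The rest of the pathway was read from 7 lists with 75 genes, of which 74 were in the file and tested. None was called in any comparison, at 0 of 74 by limma. In the genotype comparison 1 of 74 had an unadjusted p under 0.05 and was higher in null (2.9% of all genes), namely Grb14, an inhibitory adaptor of the insulin receptor. The list medians lay between 0.0024 (FoxO targets) and 0.20 (receptor level), against 0.08 over all genes. Grb14 measured 16.7 to 41.7 TPM in null and 14.8 to 25.3 TPM in wild-type libraries (difference 0.45, SE 0.19, limma adjusted p = 0.98), and the difference was 0.26 without Null_HFD 3 and WT_HFD 2. The Grb14 average with all libraries joined 0.85 on the high-fat and 0.04 on the low-fat diet (interaction 0.81, SE 0.39, which did not pass). Enpp1, which encodes an inhibitor of the receptor, differed by 0.55 (SE 0.29). That average joined -0.16 on the high-fat diet and 1.26 on the low-fat diet (interaction -1.42, SE 0.58, limma adjusted p = 1). At the lipid kinase level Pik3r3, another regulatory subunit gene, differed by 0.40 (SE 0.22). At the AKT level Trib3, an AKT-binding pseudokinase gene, differed by 0.42 (SE 0.25) and Mlst8, an mTOR complex subunit gene, by 0.32 (SE 0.18). Of the AKT targets, Pde3b, which encodes the phosphodiesterase through which insulin restrains lipolysis, differed by -0.46 (SE 0.35, and -0.30 without Null_HFD 3 and WT_HFD 2) and Foxo1 by -0.20 (SE 0.16). Among GLUT4 vesicle genes Myo1c differed by 0.23 (SE 0.16, and 0.43 without those libraries), and Rab14 by -0.20 (SE 0.12). Rab14 was the 1 of 74 genes with every null library below every wild-type library, at 99.6 to 122 TPM in null and 126 to 147 TPM in wild-type libraries, where 0.378% of all genes have that order. For glucose entry the intracellular transporter gene Slc2a8 differed by 0.51 (SE 0.26) and Txnip, which encodes an inhibitor of glucose uptake, by -0.56 (SE 0.29, and -0.30 without Null_HFD 3 and WT_HFD 2). Slc2a8 stood at 1.13 on the high-fat and -0.12 on the low-fat diet (interaction 1.25, SE 0.53), and Txnip at -1.16 on the high-fat and 0.04 on the low-fat diet (interaction -1.20, SE 0.58), each with a limma adjusted p = 1 for the interaction. Of the FoxO targets Sesn3 differed by 1.23 (SE 0.60), an average of 0.49 on the high-fat and 1.98 on the low-fat diet. Pnpla2, the adipose triglyceride lipase gene, differed by -0.43 (SE 0.42, and -0.04 without Null_HFD 3 and WT_HFD 2, where the adipocyte list of Null_HFD 3 lay at -0.83). Without these libraries 4 of 74 list genes had an unadjusted p under 0.05, all higher in null (4.88% of all genes), namely Enpp1 (0.66), Mlst8 (0.48), Myo1c (0.43) and Sesn3 (1.71).

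Between the diets 12 of 74 list genes had an unadjusted p under 0.05 and were higher in high-fat libraries (7.35% of all genes), and 0 were lower (2.34% of all genes). None passed after adjustment, with limma adjusted p of 0.513 for each of the 12. FoxO transcription factors, which insulin keeps out of the nucleus through AKT, were among them. Foxo1 measured 21.5, 16.7 and 23.5 TPM in Null_HFD and 19.5 and 26.7 TPM in WT_HFD libraries, and 12, 12.4 and 10.3 TPM in Null_LFD and 13.7 and 14.3 TPM in WT_LFD libraries. All 5 high-fat libraries lay above all 5 low-fat libraries (difference 0.72, SE 0.16). Foxo3 measured 25.5 to 41.2 TPM in high-fat and 17.2 to 30 TPM in low-fat libraries (0.46, SE 0.16). The Foxo3 average joined 0.89 in wild type and 0.04 in null mice (interaction -0.85, SE 0.32, which did not pass). For Foxo1 the diet difference was 0.67 in wild type and 0.77 in null mice.

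Of the 7 FoxO targets 3 were higher at an unadjusted p under 0.05. The others, named to complete the list, were below 0 for Pdk4 (-0.36, SE 0.65) and Klf15 (-0.15, SE 0.52). They were above 0 for Pnpla2 (0.27, SE 0.42) and Gadd45a (0.28, SE 0.30). The Klf15 average joined -1.41 in wild type and 1.11 in null mice (interaction 2.53, SE 1.04, which did not pass). Klf15 measured 8.5 TPM in WT_HFD 1 and 2.73 TPM in WT_HFD 2, and 15.5 and 14.2 TPM in WT_LFD libraries. In null mice it measured 22.6, 7.46 and 13.7 TPM in Null_HFD and 1.3, 9.22 and 11.2 TPM in Null_LFD libraries. Its differences without Null_HFD 3 and WT_HFD 2 are not given. Ccng2, a cyclin G gene, measured 58.3 to 75.1 TPM in high-fat and 34.5 to 55 TPM in low-fat libraries (0.66, SE 0.15). Bcl6, a transcriptional repressor gene named after its values were seen, measured 21.4 to 33.9 TPM in high-fat and 11.2 to 20 TPM in low-fat libraries (0.68, SE 0.20). Sesn3, a stress-inducible sestrin gene, measured 2.85 to 21.3 TPM in high-fat libraries and 0 to 11.2 TPM in low-fat libraries (2.30, SE 0.60), with WT_LFD 1 listed at 0. Foxo1, Ccng2 and Bcl6 were the 3 of 74 list genes with no overlap between the diets, all higher on the high-fat diet, where 1.59% of all genes have that order. Without Null_HFD 3 and WT_HFD 2 the differences were 0.56 for Foxo1, 0.63 for Ccng2, 0.72 for Bcl6 and 1.51 for Sesn3, and 8 of 74 list genes were higher at an unadjusted p under 0.05 (4.44% of all genes).

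The other lists gave 0 to 3 such genes each between the diets. At the receptor level these were 2 of 14, Grb2, an adaptor gene of the Ras branch (0.41, SE 0.18), and Grb14 (0.47, SE 0.19). In wild type Grb2 stood at 0.20 and Grb14 at 0.06, and in null mice at 0.63 and 0.88. At the lipid kinase level there was 1 of 9, Pik3r2, the second regulatory subunit gene, at 25.5 to 35.1 TPM in high-fat and 19.1 to 26.3 TPM in low-fat libraries (0.49, SE 0.16). Pik3cd, the catalytic subunit of leukocytes, measured 95.7 and 44.8 TPM in Null_HFD 3 and WT_HFD 2 against 5.70 to 18.6 TPM elsewhere, and its difference was 1.19 (SE 0.66) with and 0.25 without these libraries. At the AKT level Rictor, the mTOR complex 2 subunit gene, differed by 0.35 (SE 0.20), and by 0.11 without them. The AKT targets gave 3 of 11, Foxo1, Foxo3 and Akt1s1 (0.44, SE 0.19), the last named after its values were seen. Akt1s1 stood at 1.07 in wild type and -0.19 in null mice (interaction -1.27, SE 0.38, which did not pass). Acly, the ATP citrate lyase gene of fatty acid synthesis, lay farthest below 0 of all 74 and was also named after its values were seen (-1.61, SE 0.82, limma adjusted p = 0.534). It measured 106, 124 and 108 TPM in Null_HFD and 381 and 86.5 TPM in WT_HFD libraries, and 225, 312 and 1151 TPM in Null_LFD and 1953 and 99.8 TPM in WT_LFD libraries. Its highest libraries, WT_LFD 1 and Null_LFD 3, were also the highest for Slc2a4. GLUT4 vesicle genes gave 2 of 14, the motor gene Myo1c, at 103 to 183 TPM in high-fat and 84.1 to 103 TPM in low-fat libraries (0.61, SE 0.16), and the membrane fusion gene Snap23 (0.36, SE 0.16). For glucose entry it was 0 of 9, with Slc2a3 (GLUT3) at 0.74 (SE 0.42, and 0.18 without Null_HFD 3 and WT_HFD 2) and Txnip at 0.55 (SE 0.29).

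**Figure D5:**
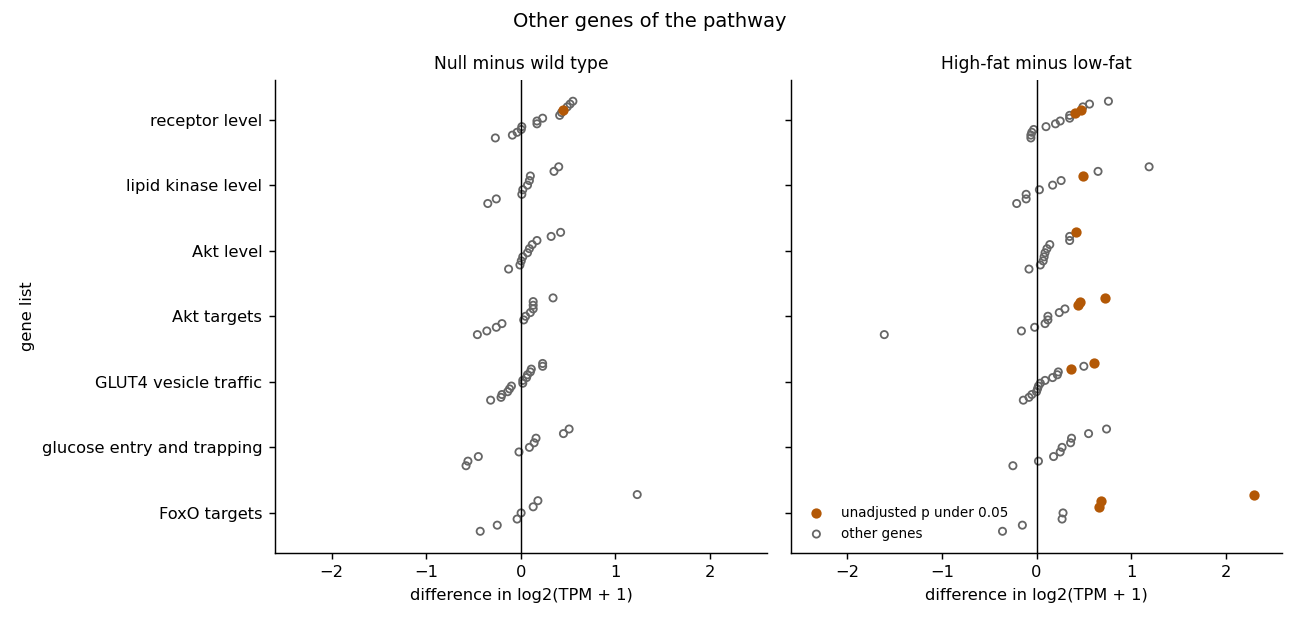
Differences in log2(TPM + 1) (horizontal axes) of the 74 tested genes in 7 pathway lists (rows), null minus wild type on the left and high-fat minus low-fat on the right, with filled points for an unadjusted p under 0.05 and open points for the rest. The left panel has 1 filled point and the right panel 12, those on the right all above 0 and Sesn3 farthest at 2.30.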

How the data were processed

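The deposited table holds log2(TPM + 1) values per gene symbol, a unit inferred from the values, which taken back to TPM sum to 946103 to 954463 per library in the authors' file. The submitters' processing notes name kallisto, limma and the build GRCm38, with no version or role. TPM keeps no read numbers, so the depth is unknown. A line with no symbol, 0.00544% to 0.0108% of TPM, was not used.

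A model of 4 group means over the 10 libraries, with a variance trend and 6 residual degrees of freedom, was run in limma 3.58.1 under R 4.3.3. It took genes that reached 1 TPM in 2 or more libraries. Tests were two-sided, with Benjamini-Hochberg adjustment over 16932 genes and a threshold of 0.05. Differences on this scale understate fold changes of low genes. Ratios within a library were compared by exact permutation. The procedure was tested on simulated data. Named genes are the 10 members, in each list the 2 genes with the smallest p in either averaged comparison and the 3 closest genes of Insr, Pik3r1 and Slc2a4. Some genes that this rule names are not reported here. Members and lists were chosen with earlier results of these data known. Limma p-values set a difference against the spread between libraries within groups, and permutation p-values count arrangements of these libraries. Promoter sequences are from RefSeq (GRCm38.p6), with entries for 8 of 10 members, Insr and Slc2a4 being without one. Alternatives covered the pseudocount, filters, scaling, mitochondrially encoded genes, the variance trend, array weights, a replicate block and libraries left out.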

Additional observations from a re-analysis of the deposited data

How the results depend on the processing

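The count of called members stayed at 0 in all 7 comparisons under every alternative run, including each library left out in turn. Those counts, which have no direction, are part of the 614 alternative values. Of the 614, 564 kept the count, or the direction and the side of the threshold, and 50 changed sign. No difference of a member or ratio had passed with the main settings, so none could lose a call. The Pik3r1 genotype difference kept its sign throughout, from -0.75 to -0.49, the last with the replicate block. With that block Irs1 was 0.55, against 0.11, and had an unadjusted p under 0.05 (limma adjusted p = 0.942). Of the 16932 genes tested with the block, 864 had an unadjusted p under 0.05. Array weights gave Irs1 0.39. For genotype, the replicate block gave 0.06 for Insr, 0.35 for Irs2 and -0.31 for Slc2a1, array weights gave 0.19 for Irs2 and -0.17 for Slc2a1, and median-of-ratios scaling gave -0.02 for Slc2a1. Without Null_HFD 3 and WT_HFD 2, Irs2 was 0.36 and Slc2a1 -0.19. For diet, median-of-ratios scaling gave -0.09 for both Akt1 and Akt2 and -0.02 for Tbc1d4, array weights gave -0.04 for Tbc1d4, and leaving out mitochondrially encoded genes gave -0.000033 for Akt1. Without Null_HFD 3 and WT_HFD 2, Irs1 was 0.24, Akt1 -0.05 and Tbc1d4 -0.15. For log2 ratios without those 2 libraries, Slc2a4 to Slc2a1 was 0.06 and Irs1 to Irs2 -0.05 for genotype, and Irs1 to Irs2 was 0.01 for diet. Over same-numbered libraries, as a replicate block, Slc2a4 to Slc2a1 was 0.20 for genotype. The cause of these changes was not tested.

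With each library left out in turn, genotype differences ranged from -0.07 to 0.42 for Irs1, -0.23 to 0.20 for Irs2, -0.35 to 0.01 for Akt2, -0.58 to 0.03 for Slc2a4 and -0.20 to 0.25 for Slc2a1. Diet differences ranged from -0.34 to 0.15 for Irs1, -0.04 to 0.40 for Irs2, -0.03 to 0.14 for Akt1, -0.13 to 0.23 for Akt2 and -0.09 to 0.26 for Tbc1d4. Log2 ratios ranged from -0.58 to 0.18 for Slc2a4 to Slc2a1 and -0.19 to 0.42 for Irs1 to Irs2 (genotype), and from -1.41 to -0.65 for Slc2a4 to Slc2a1, -0.67 to -0.05 for Irs1 to Irs2 and -0.23 to 0.24 for Akt2 to Akt1 (diet).

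Over all genes, calls for genotype averaged over diets numbered 0, against 15 with no filter, 5 with no variance trend, 3 with a pseudocount of 0.1 and 2 with array weights. Median-of-ratios scaling took the median of all genes to 0.01 against 0.15 (genotype, low-fat diet) and to 0.01 against 0.20 (diet, wild type).

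Same-numbered libraries share only a number. Deviations of 13 such pairs correlated from -0.346 to 0.412, with 2 pairs over 0.1, and the block changed no call of a member. List counts without Null_HFD 3 and WT_HFD 2 were added after seeing the data. Groups of 2 and 3 libraries limit what can be detected. Groups this small also separate easily, and the share of all genes without overlap between single groups was not computed.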
